A study of Mus musculus with 12 samples.

Results

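Ccr3, Il5ra, Siglecf, Epx, Prg2, Ear1, Ear2, Ear6 and Alox15 are 9 mouse genes by which eosinophils are commonly recognised, and they were measured here among 34989 genes in RNA from mouse melanomas. They are a named list, chosen by knowledge of the cell type and with the levels of these genes in CSF1Ri against Control in view, where several were already known to be high. Values of CSF1Ri against Control, of the combination of both agents against CSF1Ri, and of the interaction are therefore given as a description, from which no call is drawn. Of the 9 genes, 8 passed the filter on low counts and entered the fit, and Epx did not.

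The libraries came from induced mouse melanomas and carry the label tumor associated macrophages. There were 4 groups of 3 libraries, each library from at least 3 pooled tumors, and all mice carried conditional tumor alleles recombined in pigment cells by an inducible Cre recombinase (CreER), beside a genotype entry of wild type. The full genotype is not reported here, and age is given only as matched. Dosing began on day 30 after induction, while tumors were still under 100 mm3, and ran for 30 days or until a tumor reached 2 cm3. Control is read here as normal chow with vehicle (PBS), as the protocols describe control treatment. The CD40 agonist group received FGK4.5, an antibody that activates the receptor CD40 on myeloid and B cells, at 10 mg/kg into the peritoneum every 3 days for up to 10 doses. The CSF1Ri group ate chow with 600 mg/kg of PLX6134, taken from the group's name to inhibit the CSF1 receptor, on which most macrophages and non-classical monocytes depend. The CSF1Ri + CD40 agonist group, called the combination below, received both. The labels describe digestion and density separation but no sorting gate, and the RNA may hold several cell types. Whether the pools of a group were made independently is not stated, so each p-value covers only the spread between pools, which may be technical.

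Eosinophils are granulocytes of type 2 immunity. They are made in bone marrow under GATA1 and interleukin 5, whose receptor subunit is Il5ra, and enter tissue along eotaxins (Ccl11, Ccl24), which they sense through Ccr3. Siglecf is an inhibitory sialic acid receptor on their surface. Their granules hold the peroxidase Epx, the major basic protein Prg2 and, in mice, a family of ribonucleases, the Ear genes. Transcripts of Epx and Prg2 are made mainly while granules are filled in the marrow, and mature cells keep the protein with little of the RNA. Alox15 is a lipoxygenase that makes mediators from polyunsaturated fatty acids. Several of these genes are also used elsewhere: Ccr3 and Il5ra in basophils, Siglecf in alveolar macrophages, Ear1 and Ear2 in some monocytes and macrophages, and Alox15 in resident peritoneal macrophages. In RNA from a mixture of cells, fewer cells of a type and less RNA per cell cannot be told apart.

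Library totals ran from 26316328 to 39818657 estimated counts, and libraries correlated at 0.874 to 0.934 with one another. The common biological coefficient of variation was 61%, which limits what 3 libraries a group can show. Macrophage genes were present in each library, with Csf1r between 615 and 1208 CPM (counts scaled to 1000000 a library) and Cd68, a lysosomal protein of macrophages, between 521 and 765. The complement gene C1qa fell as low as 0.07 CPM in CSF1Ri replicate 1. A pair of libraries stood apart within their groups. CSF1Ri replicate 3 had a summed level of 11 neutrophil markers of 787 CPM, against 2402 and 3276 in the other CSF1Ri libraries, and combination replicate 2 had 12700 CPM of 6 classical monocyte markers, against 3532 and 5104.

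The surface receptors were highest in the CSF1Ri group and low wherever the antibody was given. Ccr3 (ENSMUSG00000035448, chromosome 9, 124021972 to 124031689, plus strand, GRCm38) stood at 41.2, 43.8 and 54.9 TPM (a level scaled for transcript length and to 1000000 a library) in CSF1Ri. The Control libraries had 11.5, 17.1 and 7.30 TPM of Ccr3. With the antibody alone Ccr3 was at 2.68, 7.54 and 6.22 TPM, and in the combination at 5.30, 5.18 and 9.22 TPM. The 3 CSF1Ri libraries were thus above all 9 others, while the other 3 groups overlapped. All counts of Ccr3 fell on the only transcript listed for it.

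Il5ra (ENSMUSG00000005364, chromosome 6, 106710357 to 106749037, minus strand), the subunit that gives the interleukin 5 receptor its specificity, was a low transcript with the same order at its top. It stood at 3.02, 3.08 and 3.76 TPM in CSF1Ri and at 1.76, 0.77 and 0.29 TPM in Control. It reached 0.10, 0.15 and 0.19 TPM with the antibody and 0.07, 0.09 and 0.08 TPM in the combination, where it rested on 24.7 estimated counts over 3 libraries against 769.7 in CSF1Ri. No group of Il5ra values in TPM overlapped the next in the order CSF1Ri, Control, CD40 agonist, combination, though in CPM the last pair did. Control replicate 1 was the highest of the Control libraries in Il5ra and in Siglecf.

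Siglecf (ENSMUSG00000039013, chromosome 7, 43351341 to 43359531, plus strand) was the most uneven receptor. In CSF1Ri it stood at 10.9, 6.28 and 21.2 TPM, with replicate 3 highest. Control had 4.94, 1.72 and 1.06 TPM, the CD40 agonist group 0.05, 0.22 and 1.57 TPM, and the combination 0.96, 0.05 and 1.53 TPM. CSF1Ri was above the other groups without overlap, and the other 3 overlapped. Of its counts, 68.1% were assigned to transcript Siglecf-201, 21.2% to Siglecf-203 and 10.4% to Siglecf-205, a retained intron form. The values above are sums over all its transcripts.

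**Figure D1:**
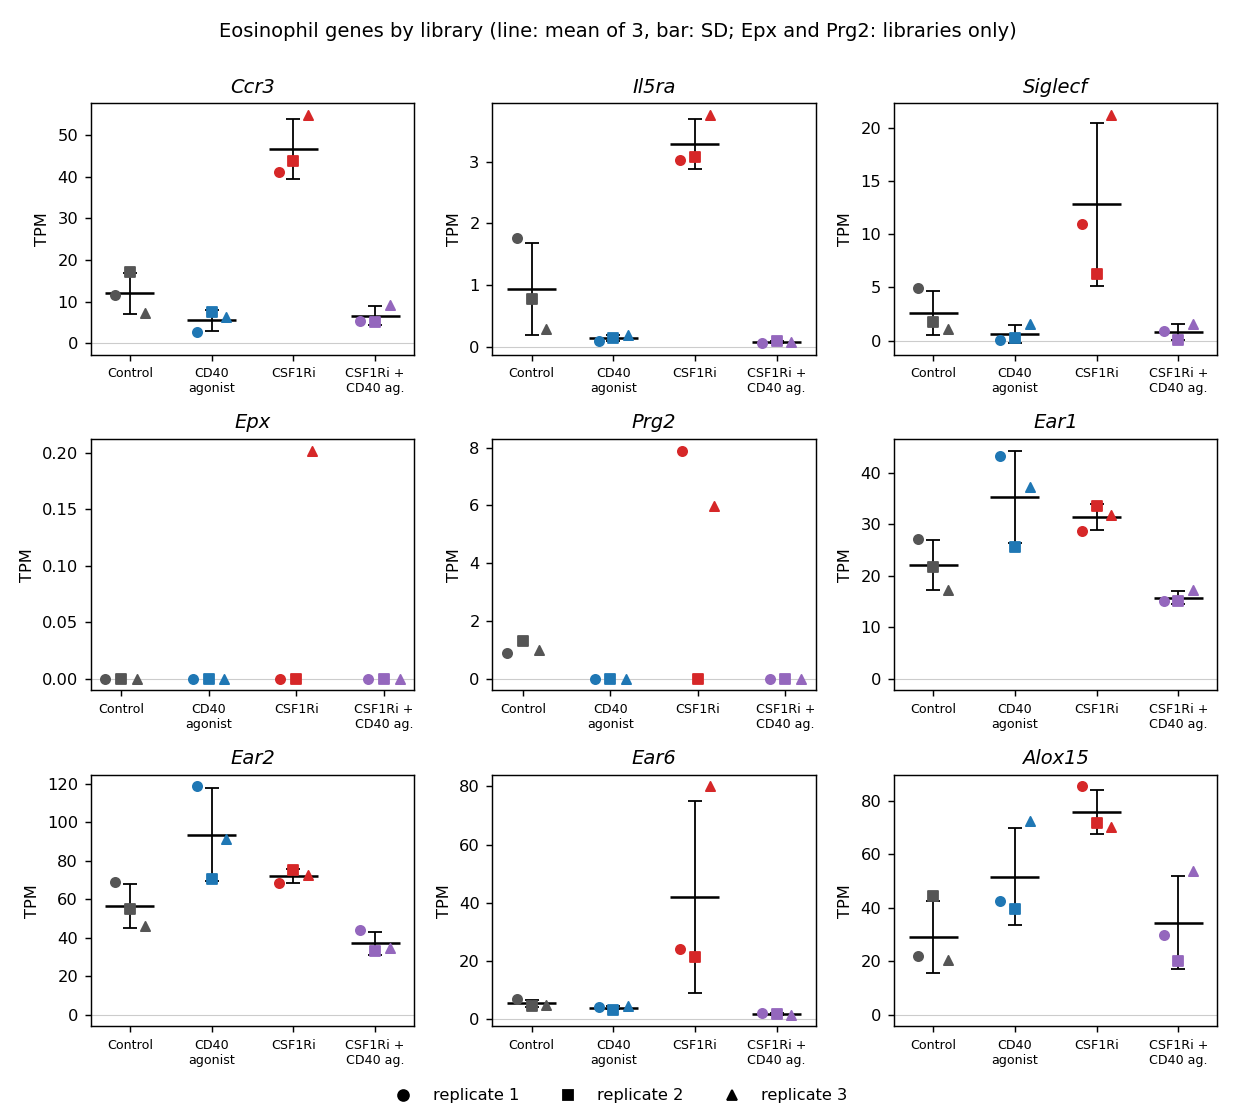
TPM (vertical axis, linear) of the 9 eosinophil genes in each library of the 4 groups (horizontal axis), with marker shape for the replicate, a line at the mean of 3 libraries and a bar for the SD, except for Epx and Prg2. Ccr3 lies between 41.2 and 54.9 TPM in CSF1Ri and at or below 17.1 TPM elsewhere, Prg2 is at 0 in all 6 libraries with the antibody, and Ear1 and Ear2 have their highest means in the CD40 agonist group.

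Of the 7 promoters of these genes in the reference table, only those of Ccr3 and Il5ra held a match to the motif of GATA factors, and they are shown for that reason, as the 250 bases before the RefSeq start (GRCm38.p6), 5′ to 3′ on the gene's strand. Capitals mark matches on either strand to the GATA motif AGATAA, whose first base may also be T and whose last base may also be G. The window of Ccr3 is chr9:124021721-124021970 and that of Il5ra is chr6:106749038-106749287.
Ccr3: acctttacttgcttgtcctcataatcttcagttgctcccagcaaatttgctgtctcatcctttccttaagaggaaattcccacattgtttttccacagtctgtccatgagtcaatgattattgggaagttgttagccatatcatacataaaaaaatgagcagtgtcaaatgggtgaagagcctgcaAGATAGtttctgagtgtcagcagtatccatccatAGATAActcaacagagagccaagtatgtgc
Il5ra: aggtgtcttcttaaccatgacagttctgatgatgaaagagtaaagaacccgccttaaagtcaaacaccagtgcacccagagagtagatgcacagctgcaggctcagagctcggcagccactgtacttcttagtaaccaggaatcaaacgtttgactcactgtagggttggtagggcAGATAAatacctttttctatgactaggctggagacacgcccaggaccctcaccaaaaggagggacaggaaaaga
Ccr3 had 2 matches, which begin 64 and 30 bases before the start, and Il5ra had 1, which begins 74 bases before it. The promoters of Siglecf, Epx, Ear1, Ear2 and Ear6 had 0. Among 32851 RefSeq promoters of this length 26.5% held at least 1 match and 6.4% held 2 or more, so a match is common. Promoters of Prg2 and Alox15 were not analysed here.

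The granule protein genes were nearly silent. Epx (ENSMUSG00000052234, chromosome 11, 87864000 to 87875536, minus strand) had no count in 11 libraries and 13 estimated counts, or 0.20 TPM, in CSF1Ri replicate 3. The 3 counts that a group total of 0 still allows correspond to 0.032 CPM in Control and 0.028 CPM in the combination. Prg2 (ENSMUSG00000027073, chromosome 2, 84980461 to 84983632, plus strand) was at 0.88, 1.32 and 0.99 TPM in Control and at 7.89, 0 and 5.98 TPM in CSF1Ri. It had no count in any of the 6 libraries with the antibody. Against a floor of 3 counts over a group, Prg2 was at least 17.2-fold lower with the antibody than in Control (0 against 52 counts) and at least 83.6-fold lower in the combination than in CSF1Ri (0 against 225 counts). These floors cover counting error only. Prg3, the neighbour and homologue of Prg2, chosen for mention after its values were seen, was likewise at 0 in all 6 antibody libraries and at 1.32, 0.64 and 0.76 CPM in CSF1Ri. Epx, which defines the cell type most narrowly, was thus at 0 in nearly all libraries, and the name eosinophil rests here on genes that other cells also use.

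The ribonuclease genes share sequence, which bears on how their reads were assigned. Of all 31-base windows of the main transcript, 47.7% in Ear1 and 55.3% in Ear2 also occurred in another Ear family gene, but only 7.91% in Ear6. Of 75-base windows, the length of 1 read, 13.3% in Ear1, 22% in Ear2 and 0% in Ear6 did. The coding sequences of Ear1 and Ear2 were 95.7% identical, with 20 differing bases of 465, and Ear6 was 88.2% identical to Ear2. A pair of 75-base coding windows from GENCODE M21 (GRCm38) shows the range, with positions counted from the first base of the start codon and capitals at bases that differ from Ear2. The first is the window in which the 3 genes are most alike, at coding positions 1 to 75, where Ear1 differs from Ear2 at 1 base and Ear6 at 4.
Ear2: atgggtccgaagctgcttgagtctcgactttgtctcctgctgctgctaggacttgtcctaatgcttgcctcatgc
Ear1: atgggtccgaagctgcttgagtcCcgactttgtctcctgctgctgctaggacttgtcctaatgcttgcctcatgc
Ear6: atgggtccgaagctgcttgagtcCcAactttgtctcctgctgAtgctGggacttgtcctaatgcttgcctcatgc
The other is the window in which Ear6 differs most from Ear2, at 15 bases, while Ear1 differs at 2. It lies at positions 358 to 432 in Ear2 and 355 to 429 in Ear1 and Ear6.
Ear2: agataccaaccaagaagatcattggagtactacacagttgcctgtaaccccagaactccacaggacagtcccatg
Ear1: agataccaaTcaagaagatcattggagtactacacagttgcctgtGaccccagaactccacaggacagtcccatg
Ear6: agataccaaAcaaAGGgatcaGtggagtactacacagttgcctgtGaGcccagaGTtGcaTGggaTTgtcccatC
The split between Ear1 and Ear2 is therefore uncertain, and that between Ear6 and the other two much less so. The 250 bases before the start of Ear1 and Ear2 were also close to identical, at 99.2%, against 92.6% for Ear1 and Ear6.

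Ear2 (ENSMUSG00000072596, chromosome 14, 44102654 to 44103534, plus strand) was the most abundant of the ribonucleases outside CSF1Ri replicate 3. It stood at 68.8, 54.8 and 46.2 TPM in Control and at 119, 70.7 and 91.5 TPM with the antibody. CSF1Ri had 68.5, 75.4 and 72.5 TPM, and the combination had the lowest values, 44.0, 33.1 and 34.7 TPM. In TPM the combination lay below the other 3 groups without overlap, though in CPM it overlapped Control, and CSF1Ri overlapped both Control and the CD40 agonist group.

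Ear1 (ENSMUSG00000072601, chromosome 14, 43818765 to 43875517, minus strand) followed Ear2 at a near constant ratio. It stood at 27.1, 21.7 and 17.3 TPM in Control and at 43.2, 25.6 and 37.1 TPM with the antibody. CSF1Ri had 28.7, 33.6 and 31.9 TPM of Ear1, and the combination had 15.1, 15.1 and 17.2 TPM. In TPM the CD40 agonist group overlapped Control, though in CPM it did not. The combination lay below Control in TPM but overlapped it in CPM. The ratio of Ear2 to Ear1 stayed between 2.02 and 2.92 over the 12 libraries.

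Ear6 (ENSMUSG00000062148, chromosome 14, 51853699 to 51854643, plus strand) was, like the receptors, highest in CSF1Ri. In the combination against CD40 agonist, however, it was lower without overlap in CPM, as Ear1 and Ear2 were, while the receptors overlapped. Ear6 stood at 24.1, 21.4 and 80.0 TPM in CSF1Ri, and at 6.67, 4.42 and 4.89 TPM in Control. Values were 3.93, 3.13 and 4.40 TPM with the antibody and 1.88, 1.49 and 1.44 TPM in the combination. In TPM no group overlapped the next in the order of their means, though in CPM Control and the CD40 agonist group did. Ear6 made up 5.54% to 7.34% of the summed counts of Ear1, Ear2 and Ear6 in Control, 17.0%, 20.4% and 43.9% in CSF1Ri, 2.53% to 3.47% with the antibody and 2.80% to 3.21% in the combination. CSF1Ri replicate 3 was thus highest in Ear6, Siglecf, Ccr3 and Il5ra, and it was also the library low in neutrophil markers.

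**Figure D2:**
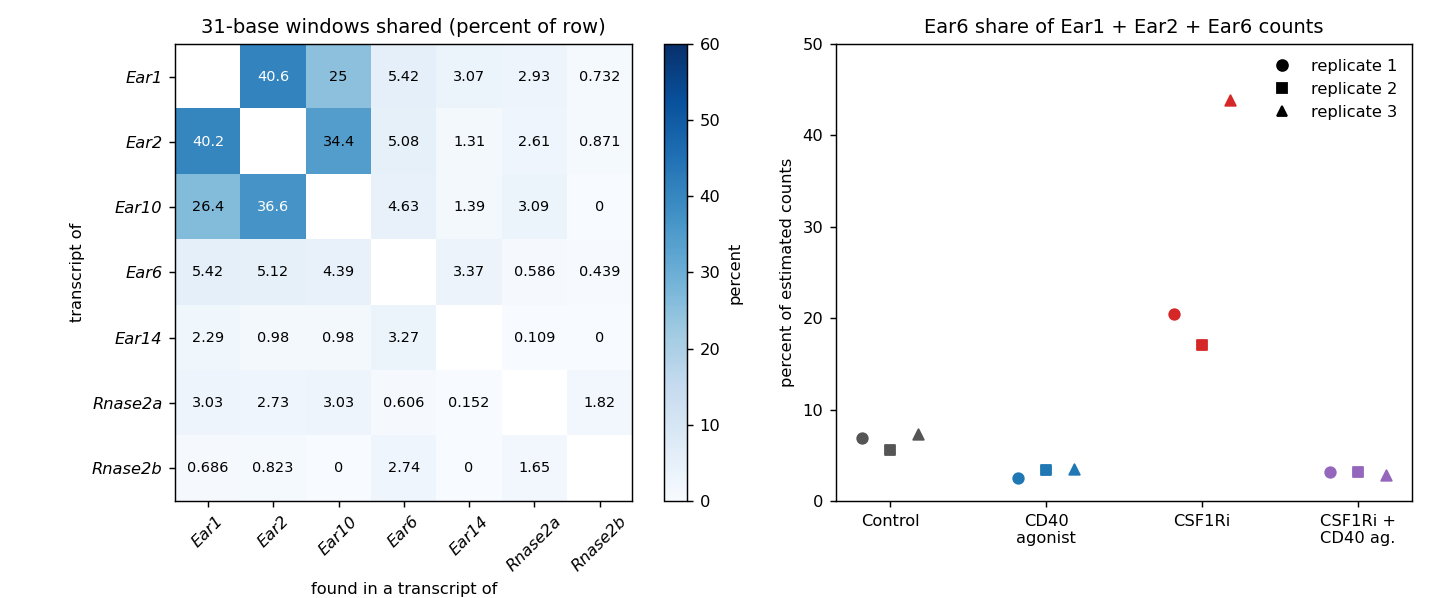
Left, the percent of 31-base windows of the main transcript of each Ear family gene (rows) that also occur in a transcript of another (columns), with darker blue for a higher share. Right, the percent of the estimated counts of Ear1, Ear2 and Ear6 that fell on Ear6 in each library (points, marker shape for the replicate) by group. Ear1 and Ear2 share 40.6% and 40.2% of their windows with each other, and the Ear6 share is 17.0% or more in CSF1Ri and 7.34% or less in the other 9 libraries.

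Alox15 (ENSMUSG00000018924, chromosome 11, 70344152 to 70352031, minus strand) had its highest mean in CSF1Ri, with wide spread elsewhere. It stood at 85.5, 71.8 and 70.4 TPM in CSF1Ri and at 22.1, 44.6 and 20.4 TPM in Control. The CD40 agonist group had 42.8, 39.5 and 72.5 TPM and the combination 29.7, 19.99 and 53.8 TPM. Neighbouring groups overlapped throughout the order of its means.

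Set side by side as log2 differences of CSF1Ri minus Control from the edgeR fit, Ear6 differed by 2.94 ± 0.54 (SE), Siglecf by 2.39 ± 1.23, Prg2 by 2.10 ± 1.58, Ccr3 by 1.96 ± 0.41, Il5ra by 1.75 ± 0.67 and Alox15 by 1.34 ± 0.38. Ear1, at 0.50 ± 0.28, and Ear2, at 0.34 ± 0.23, differed least. In 6 of the 8 genes the CSF1Ri libraries lay wholly above Control in CPM, where 7.23% of the 16027 genes tested did so, 8.55% lay wholly below and 15.8% did either. The edgeR test called 0.0125% of all genes in this comparison, all of them higher. Nothing is read from these counts for the 8 genes, since the comparison entered their choice. Without CSF1Ri replicate 3 the difference of Ear6 was 2.08 and that of Siglecf 1.79, and without Control replicate 1 that of Il5ra was 2.58 and that of Siglecf 3.11.

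The combination against CD40 agonist asks what the inhibitor did when the antibody was present, and none of its 6 libraries took part in the choice of the genes. The receptors overlapped in CPM between these groups. Ccr3 differed by 0.35 ± 0.40 on the log2 scale (95% interval -0.53 to 1.23, adjusted p = 0.889, edgeR quasi-likelihood test with Benjamini-Hochberg adjustment over all genes). Il5ra differed by -0.77 ± 0.69 and Siglecf by 0.56 ± 1.20, and the sign of Siglecf turned to -0.14 without combination replicate 3 and rose to 2.73 without CD40 agonist replicate 3. The ribonucleases were lower: Ear2 by -1.21 ± 0.24 (edgeR adjusted p = 0.183), Ear1 by -1.05 ± 0.28 (edgeR adjusted p = 0.302) and Ear6 by -1.15 ± 0.52 (edgeR adjusted p = 0.551). All 3 combination libraries were below all 3 CD40 agonist libraries in these 3 genes, where 6.93% of genes tested were lower without overlap in CPM and 6.6% higher. The edgeR test called 0 of the 8 genes at an adjusted p below 0.05, and it called 0% of all genes in this comparison. At an unadjusted p below 0.05 it passed 3 of the 8, Ear1, Ear2 and Ear6, beside 9.05% of all genes. DESeq2 called 2, Ear1 and Ear2, among 347 genes in all, and limma on log2(TPM + 1) called Ear2, among 29 genes. Alox15 differed by -0.49 ± 0.38, and Prg2 was at 0 in both groups.

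The CD40 agonist against Control asks what the antibody did alone. It shares the Control libraries with the comparison that entered the choice of the genes. Receptors and Prg2 were lower and Ear1 and Ear2 higher, but none of these differences passed the test. Il5ra differed by -2.54 ± 0.70 (edgeR adjusted p = 0.43) and Ccr3 by -1.05 ± 0.40 (edgeR adjusted p = 0.594). Siglecf differed by -1.93 ± 1.22, and by -4.10 without CD40 agonist replicate 3. Without Control replicate 1 the difference of Il5ra was -1.69. Ear2 differed by 0.78 ± 0.23 (edgeR adjusted p = 0.483), Ear1 by 0.73 ± 0.28, Alox15 by 0.89 ± 0.38 and Ear6 by -0.40 ± 0.51. In CPM, Ear1 and Ear2 were higher without overlap, as were 8.34% of genes tested, and Il5ra and Prg2 lower without overlap, as were 8.74%. In TPM the Ear1 values overlapped. The edgeR test called 0 of the 8 genes and 0% of all genes, while 6 of the 8 had an unadjusted p below 0.05, beside 7.68% of all genes. DESeq2 called 2 of the 8, Il5ra and Ear2, among 250 genes in all.

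The combination against Control also shares the Control libraries. Il5ra differed by -3.31 ± 0.72 (edgeR adjusted p = 0.0649), or -2.47 without Control replicate 1, and Ear6 by -1.55 ± 0.53 (edgeR adjusted p = 0.203). Ccr3 differed by -0.71 ± 0.40, Siglecf by -1.37 ± 1.20 (-2.07 to -0.63 with 1 library left out), Ear2 by -0.43 ± 0.23, Ear1 by -0.32 ± 0.28 and Alox15 by 0.40 ± 0.38. Prg2 was at least 19.4-fold lower against the same floor. Il5ra, Prg2 and Ear6 were lower without overlap in CPM, and 11.5% of genes tested were. The edgeR test called 0 of the 8, beside 0.774% of all genes, and 3 had an unadjusted p below 0.05, beside 14.8% of all genes. DESeq2 called Il5ra and Ear6, among 1117 genes.

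The combination against CSF1Ri asks what the antibody did in mice on the inhibitor. The high CSF1Ri values entered the choice of the genes, so these differences are a description, with no p-value and nothing read from how many pass the test. Ear6 stood 22.4-fold lower in the combination, a log2 difference of -4.49 ± 0.59, and -3.64 without CSF1Ri replicate 3. Il5ra stood 33.2-fold lower at -5.05 ± 0.78, and Ccr3 6.33-fold lower at -2.66 ± 0.42. The other differences were -3.76 ± 1.30 for Siglecf (-4.45 to -3.16 with 1 library left out), -0.81 ± 0.28 for Ear1, -0.77 ± 0.24 for Ear2 and -0.94 ± 0.38 for Alox15. For 7 of the 8 genes the combination lay wholly below CSF1Ri in CPM, as did 11.1% of genes tested. Prg2 was the exception, since CSF1Ri replicate 2 had no count of it either. Over all genes the edgeR test called 0.699% lower, 1.24% higher and 1.94% in either direction. No such count is given for the 8 genes, since their choice favoured it in advance.

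**Figure D3:**
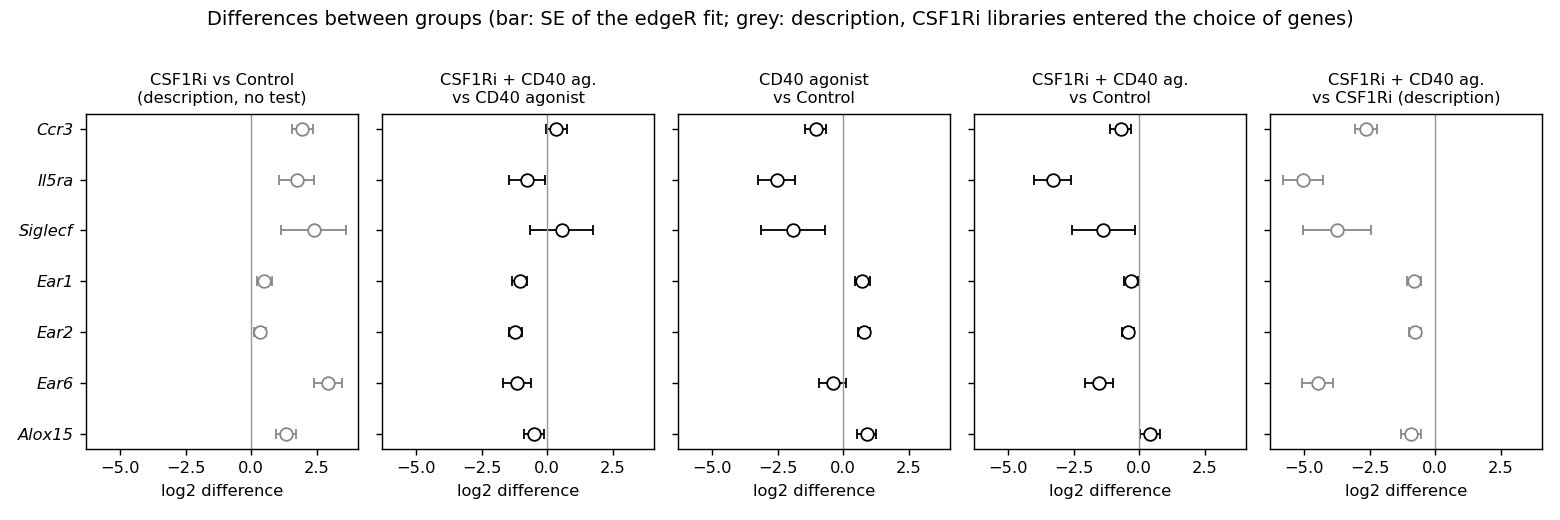
Log2 differences between groups (horizontal axis) with the SE of the edgeR fit (bars) for 7 of the genes (vertical axis) in 5 comparisons, with grey points where CSF1Ri libraries that entered the choice of the genes take part. None of the black points passed the edgeR test at an adjusted p below 0.05, and Ear1 and Ear2 lie above 0 for the antibody alone and below 0, at -1.05 and -1.21, for the combination against CD40 agonist.

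Because the reads of Ear1 and Ear2 cannot be fully separated, the 7 genes Ear1, Ear2, Ear6, Ear10, Ear14, Rnase2a and Rnase2b were also summed to 1 feature. The sum stood at 30.1 to 46.6 CPM in Control, 49.8 to 78.7 CPM with the antibody, 56.1 to 82.6 CPM in CSF1Ri and 25.2 to 31.9 CPM in the combination. It differed by -1.25 ± 0.23 in the combination against CSF1Ri, a description for the reason given above, by -1.17 ± 0.23 in the combination against CD40 agonist (edgeR adjusted p = 0.191) and by 0.73 ± 0.23 in CD40 agonist against Control (edgeR adjusted p = 0.55). For Ear6 alone the last difference was -0.40, so the sum, in which Ear1 and Ear2 make up most counts, had the opposite sign.

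The genes around these receptors were read from lists. These lists, and the marker lists below, were also chosen with earlier results of these data known. Of 12 attractants and growth factors, 9 passed the filter, and 1 was called: Ccl5, a ligand of Ccr3 and Ccr1, was higher in the combination than in CSF1Ri by 1.47 ± 0.31 (edgeR adjusted p = 0.0425), a call kept in 2 of 12 fits that left out 1 library. Il5, the growth factor itself, had no count in any Control or CSF1Ri library and reached at most 0.58 CPM elsewhere. Il3 had counts in 1 library, at 0.11 CPM. These genes, like the eotaxins that follow, were chosen after their values were seen. The eotaxin Ccl24 was at 43.7 to 64.4 CPM in CSF1Ri and at 0.58 CPM in combination replicate 2, against 52.2 and 68.8 CPM in the other combination libraries. Ccl11 stayed at or below 2.16 CPM. The median log2 difference of the 9 was 1.83 in CD40 agonist against Control and 1.15 in the combination against Control, each with 8 of 9 above 0 and 0 called. It was 0.68 in the combination against CSF1Ri and -0.57 in the combination against CD40 agonist. The median of all genes was between 0 and 0.02 in these comparisons.

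None of 8 partner receptors was called in any comparison. Their median log2 difference was -0.30 in the combination against CSF1Ri, with 6 of 8 below 0. It was 0.69 in CSF1Ri against Control, 0.30 in the combination against CD40 agonist and 0.46 in the combination against Control. In each of these 7 of 8 were above 0. In CD40 agonist against Control it was 0.04, with 5 of 8 above 0. By the naming rule, Il3ra and Csf2rb2, subunits of the interleukin 3 receptor, differed by 0.91 ± 0.58 and 0.39 ± 0.23 in the combination against CD40 agonist. The shared signalling subunit Csf2rb, which pairs with Il5ra, stayed between 371 and 786 CPM, while Il5ra ranged over more than an order of magnitude. Ccr1, a receptor of Ccl5 that neutrophils and monocytes also use, was at 1420, 1172 and 204 CPM in CSF1Ri, with replicate 3 low, so it did not follow Ccr3, for which that library was highest. Of 8 lineage transcription factors, 7 passed the filter and 1 was called: Xbp1, a factor of secretory cells that eosinophil development needs, was lower in the combination than in CSF1Ri by -0.85 ± 0.14 (edgeR adjusted p = 0.0176), with the call lost without CSF1Ri replicate 1 or 2 (highest adjusted p 0.0597). Gata1, the factor that commits eosinophils, basophils, mast cells and red cells, was at 21.3, 6.89 and 28.7 CPM in CSF1Ri and at 2.80 to 4.62 CPM in Control, and differed by -1.80 ± 0.56 in the combination against CSF1Ri (edgeR adjusted p = 0.125).

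Of the 5 other eosinophil and Ear family genes, 4 passed the filter and 0 were called by edgeR in any comparison. Rnase2a, a ribonuclease of the same family, was at 2.21, 1.65 and 1.42 CPM with the antibody and at 0.52, 0.30 and 0.03 CPM in the combination, a difference of -2.63 ± 0.88 (edgeR adjusted p = 0.397). Rnase2b had counts in 3 libraries. Ear10 stayed between 0.27 and 1.71 CPM and Ear14 at or below 0.07 CPM. Of 6 lipoxygenase and leukotriene genes, 0 were called. Ltc4s, which makes leukotriene C4, differed by -2.09 ± 0.94 and Alox12e, an epidermal lipoxygenase, by 1.96 ± 1.89 in the combination against CD40 agonist. Alox5ap, the partner of 5-lipoxygenase, stayed between 1008 and 1720 CPM.

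Basophils and mast cells share Ccr3 and, in basophils, Il5ra. Of their 10 markers, 8 were above 0 in CSF1Ri against Control (median log2 difference 1.48), with 0 called. None of the 10 was called lower in any comparison, and edgeR called at most 0.699% of all genes lower in any. Mcpt4, a mast cell protease, had no count in 6 libraries, and Prss34 and Tpsb2 had none in 1 and 2. Their summed level was 265 to 281 CPM in Control, 296 to 536 CPM with the antibody, 466 to 1529 CPM in CSF1Ri and 697 to 959 CPM in the combination. In the combination against Control all 10 were above 0 (median log2 difference 2.01). The edgeR test called 3 of the 10 higher, beside 0.462% of all genes. These were Mcpt8, a basophil protease, by 2.58 ± 0.51 (edgeR adjusted p = 0.0481), Cpa3, a mast cell and basophil carboxypeptidase, by 2.16 ± 0.39 (edgeR adjusted p = 0.0362), and Fcer1a, the chain of the IgE receptor that binds IgE, by 1.86 ± 0.34 (edgeR adjusted p = 0.0367). These calls held in 3, 3 and 4 of the 12 fits that left out 1 library, and were lost without each Control library. Against CSF1Ri, 7 of the 10 were above 0 in the combination (median 0.59) and 0 were called, and Mcpt8 differed by -0.20 ± 0.48. In CSF1Ri replicate 3, Mcpt8 was lowest of its group at 60.3 CPM, while Ccr3, Il5ra and Ear6 were highest. The part of these cells in the receptor levels was not tested.

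Non-classical monocytes, the patrolling monocytes known for Ear2, had a different order of groups from Ear1 and Ear2. All 7 markers had counts in every library, and their summed level was 1579 to 1652 CPM in Control, 1183 to 1417 CPM with the antibody, 798 to 950 CPM in CSF1Ri and 669 to 1026 CPM in the combination. In the combination against Control all 7 were below 0 (median log2 difference -0.79). The edgeR test called 4 of the 7 lower, beside 0.312% of all genes. These were Pou2f2 by -1.87 ± 0.26, Ace by -2.21 ± 0.32, Cd300e by -1.56 ± 0.25 and Cx3cr1 by -0.71 ± 0.14, with edgeR adjusted p of 0.0173, 0.0196, 0.0256 and 0.0454. All 4 calls were lost without any 1 Control library, with edgeR adjusted p up to 0.0836, 0.0956, 0.125 and 0.153. Pou2f2 was also lower in the combination than in CSF1Ri, by -1.22 ± 0.25 (edgeR adjusted p = 0.0373, up to 0.0987 with 1 library left out). The median log2 difference of the 7 was -0.95 in CSF1Ri against Control, where Ear2 stood at 0.34, and -0.34 in CD40 agonist against Control, where Ear2 stood at 0.78, with 0 of the 7 called in either. The part of these cells in the Ear1 and Ear2 levels was not tested.

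Among 11 neutrophil markers, 1 was called: Retnlg, a secreted protein of neutrophils, was lower in the combination than in Control by -2.87 ± 0.46 (edgeR adjusted p = 0.0228, up to 0.109 with 1 library left out) and lower than in CSF1Ri by -4 ± 0.48 (edgeR adjusted p = 0.00837, called in each of 12 such fits). It was at 19.4, 13.8 and 28.1 CPM with the antibody, against 218, 195 and 119 CPM in Control. Of the 11 markers, Retnlg included, 8 were above 0 in the combination against Control (median 1.11). In the combination against CD40 agonist 11 of 11 were (median 1.7). In CSF1Ri against Control 7 of the 11 were above 0 and 4 below (median 1.13). In CD40 agonist against Control 7 of the 11 were below 0 (median -0.66), as were 7 in the combination against CSF1Ri (median -0.31). The summed level of the 11 markers was 558 to 1386 CPM in Control, 467 to 626 CPM with the antibody, 787 to 3276 CPM in CSF1Ri and 885 to 2601 CPM in the combination. Of 9 alveolar and peritoneal macrophage markers, which bear on Siglecf and Alox15, 8 passed the filter and 1 was called: Timd4, a receptor of resident macrophages for dying cells, was higher in the combination than in CSF1Ri by 2.69 ± 0.55 (edgeR adjusted p = 0.0365, called in 1 of 12 such fits). Marco, a scavenger receptor of alveolar macrophages, had no count in CSF1Ri or in the combination. Car4, a carbonic anhydrase of alveolar macrophages, was at 2.92, 0.07 and 42.1 CPM in CSF1Ri and at most 2.27 CPM elsewhere, and the highest of these was in the library highest in Siglecf. The list as a whole went the other way in CSF1Ri against Control, with 3 of 8 above 0, 5 below and a median of -1.42, and its summed level was 93.0 to 119 CPM in CSF1Ri against 120 to 134 CPM in Control. The part of these cells in the Siglecf level was not tested.

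Markers of melanocytes, lymphocytes and keratinocytes were low. The summed level was 9.91 CPM (median) for 5 melanocyte markers in Control, 4.55 CPM in CSF1Ri and 32.2 CPM in the combination. It was at most 60.3 CPM in any library for 5 T cell markers, 79.5 CPM for 5 B cell markers and 52.5 CPM for 3 keratinocyte markers. Of 3 erythroid genes, globins and a heme synthesis enzyme, the sum was 278 to 425 CPM in Control, 81.4 to 129 CPM with the antibody, 135 to 372 CPM in CSF1Ri and 8.32 to 207 CPM in the combination. Their median log2 difference was -1.7 in CD40 agonist against Control and -1.82 in the combination against Control, with 0 called, and the sums of neither antibody group overlapped Control. Its part in the receptor levels was not tested. Of these lists only Ms4a1, the B cell antigen CD20, was called: it was lower in the combination than in Control by -3.79 ± 0.74 (edgeR adjusted p = 0.047, called in 1 of 12 fits that left out 1 library). Of 6 classical monocyte markers and 10 macrophage markers, 0 were called by edgeR in any comparison. In CSF1Ri against Control all 6 classical monocyte markers were above 0 (median log2 difference 1.35). Of the 10 macrophage markers 8 were below 0 there and 2 above (median -0.60).

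**Figure D4:**
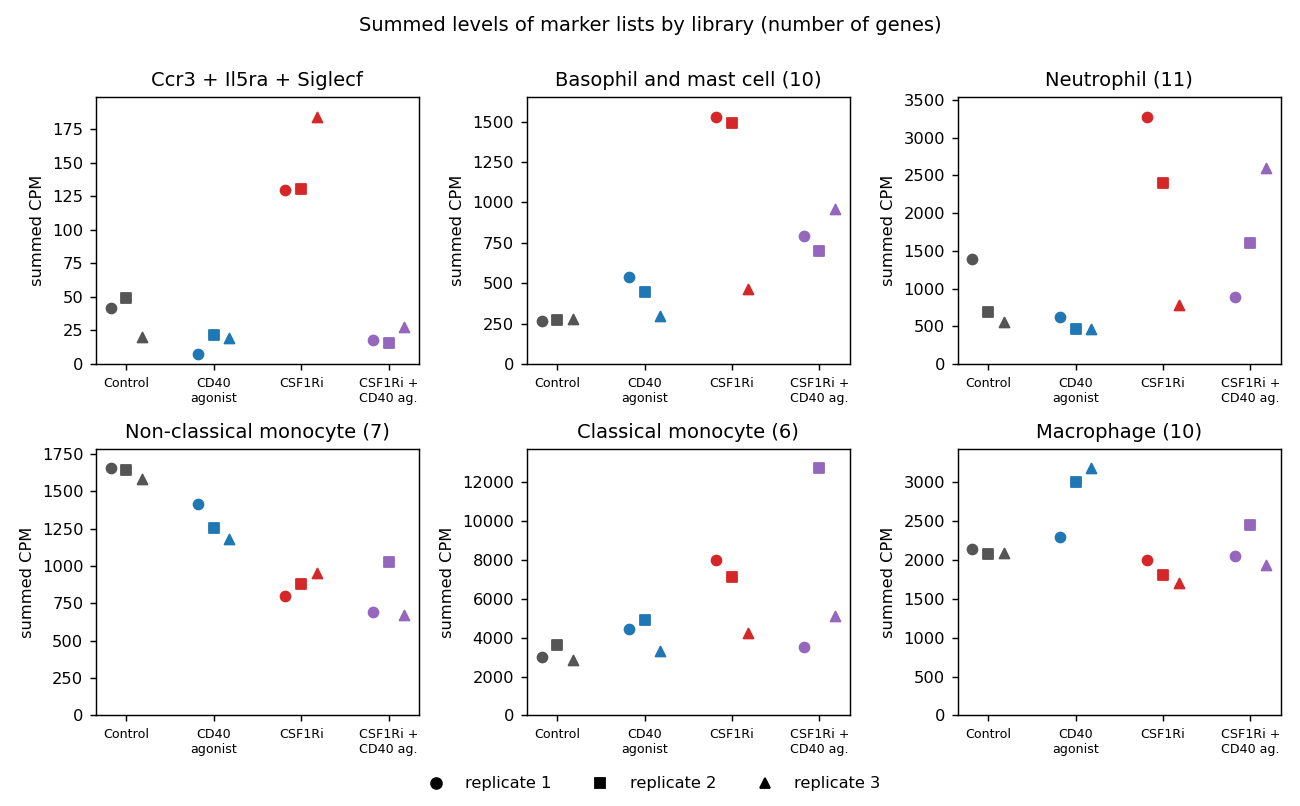
Summed CPM (vertical axis, linear) of Ccr3, Il5ra and Siglecf and of 5 marker lists in each library of the 4 groups (horizontal axis), with marker shape for the replicate and the number of genes in each title. The sum of the 3 receptors is at most 27.7 CPM in the 6 antibody libraries and at least 129.7 CPM in CSF1Ri, while basophil and mast cell markers in the combination, 697 to 959 CPM, lie above those of Control.

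Genes with a profile like that of Ccr3 over the 12 libraries were ranked among 9799 genes with a mean of at least 5 CPM. The highest Spearman coefficients were 0.94 for Dock1, a regulator of Rac in cell migration, 0.94 for Man2b1, a lysosomal mannosidase, 0.94 for Stard9, a kinesin, 0.94 for Atrn, attractin, and 0.92 for Chkb, a choline kinase. Among the listed eosinophil genes the coefficient was 0.89 for Siglecf, 0.85 for Il5ra, 0.69 for Ear6, 0.55 for Prg2, 0.48 for Alox15, 0.20 for Ear1 and 0.01 for Ear2. The 3 CSF1Ri libraries hold the top ranks of Ccr3 and so set much of these values. Over the 9 libraries outside CSF1Ri the coefficient was 0.75 for Siglecf, 0.65 for Il5ra, 0.64 for Prg2, 0.28 for Ear6, 0.07 for Alox15, -0.05 for Ear1 and -0.22 for Ear2. It was 0.85 to 0.92 for the 5 other genes. Those 5 were picked as the highest over 12 libraries that include these 9, so high values were favoured in advance. These coefficients describe libraries that share groups and depth, and carry no p-value.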

How the data were processed

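RNA-seq was made from 12 melanoma samples. Per the labels' protocols, unstranded libraries from 50 ng of RNA were read as 75-bp pairs, 6 to a lane, and which shared a lane is not stated. Per the submitters' processing notes STAR, mm10, HTSeq and DESeq2 were used. Per the file headers, however, each deposited file gives an estimated count and a TPM value per transcript, while no source used here names the quantifier or its annotation. The deposited estimated counts are raw, and reads that fit several transcripts can be shared out between them. The deposited TPM add up to 1000000 in each library.

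Of 111462 transcripts, 98.9% matched GENCODE M21 (GRCm38), and the rest held 0.378% to 0.436% of counts and were left out. Counts and TPM were summed per gene, and counts rounded. edgeR 4.0.16 (R 4.3.3) fitted all 12 libraries with 1 term per group, TMM scaling and filterByExpr (16027 genes kept). Robust quasi-likelihood F-tests were adjusted by Benjamini-Hochberg over all genes, with calls at an adjusted p below 0.05. The script was tested on simulated data. SE is the log2 difference over the root of F. CPM is scaled by TMM. A group total of 0 has a floor of 3 counts, which covers counting error only, because PCR copies cannot be told from separate molecules.

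The genes and lists were chosen with earlier results of these data known. Named are the 9 genes, list genes that were called, otherwise the 2 of a list that differed most in the combination against CD40 agonist, and the 5 genes most like Ccr3 (log2 CPM, prior count 2). Outside this rule, Csf1r, Cd68, C1qa, Prg3, Il5, Il3, Ccl11, Ccl24, Csf2rb, Ccr1, Gata1, Ear10, Ear14, Alox5ap, Mcpt4, Prss34, Tpsb2, Marco and Car4 were named after their values were seen. For T cell, melanocyte and keratinocyte lists only sums are printed, and for the erythroid list sums and medians. No gene of these lists or of the classical monocyte list is named, and no macrophage marker by the rule. Alternatives were relative log expression scaling, DESeq2 1.42.0, limma 3.58.1 (voom, and log2 TPM with pseudocounts of 1 and 0.1), no filter, only the 6 libraries compared, a replicate block, each library left out, CSF1Ri replicate 3 and combination replicate 2 both left out, and the Ear genes summed. Rank coefficients outside CSF1Ri and the interaction with each library left out were added after seeing the data.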

Additional observations from a re-analysis of the deposited data

Results flagged for a closer look

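In 3 ribonuclease genes the libraries separated in CPM one way for an agent alone and the other way when the second agent was present. The difference between those effects was not tested, since it contains the comparison that entered the choice of the genes. Nothing is read from the count of 3 genes. The share of all genes that did so is not given here, and the split of reads between Ear1 and Ear2 is uncertain. For Ear1 the interaction on the log2 scale (the effect of both agents minus the sum of each alone) was -1.55 ± 0.40 (SE). In CPM all CSF1Ri and all CD40 agonist libraries lay above Control, and all combination libraries lay below those of either agent. In TPM, however, CD40 agonist replicate 2 (25.6) lay below Control replicate 1 (27.1). For Ear2 it was -1.55 ± 0.33, with the CD40 agonist libraries above Control and the combination below CSF1Ri and below the CD40 agonist group. For Ear6 it was -4.08 ± 0.75, with CSF1Ri above Control and the combination below the CD40 agonist group, and -3.24 without CSF1Ri replicate 3. With 1 library left out, an alternative added after seeing the data, it ranged from -4.39 to -3.24 for Ear6, from -1.72 to -1.38 for Ear1 and from -1.71 to -1.36 for Ear2.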

How the results depend on the processing

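With 3 libraries a group and a common variation of 61%, few calls were stable to the choice of test. Of the 8 genes tested, DESeq2 called 2 in the combination against CD40 agonist (limma on TPM with a pseudocount of 1 or 0.1 called 1), 2 in CD40 agonist against Control and 2 in the combination against Control, each 0 in edgeR. The combination against CSF1Ri is a description for these genes, and no count of calls is given for it. In the other 3 comparisons relative log expression scaling, voom, no filter, the replicate block and leaving out both outlying libraries kept 0. The median of CSF1Ri minus Control over the 8 genes was 1.85, 1.32 on log2(TPM + 1), a scale on which low genes change less, and 1.48 to 2 under the other alternatives. Calls in the other lists numbered 14, but 91 by DESeq2, 27 by limma on TPM with either pseudocount, 5 on the 6 libraries compared, 5 with the replicate block, 61 without both outlying libraries and 2 to 23 with 1 library left out. The cause of these differences was not tested. Over all genes the combination against CSF1Ri gave 311 calls, 22 to 429 with 1 library left out, 1673 by DESeq2, 502 and 519 by limma on TPM, 121 with the replicate block, 0 on the 6 libraries and 632 without both outlying libraries. In the same order, the combination against Control gave 124, 0 to 154, 1117, 240 and 261, 59, 5 and 232, and CSF1Ri against Control gave 2, 0 to 124, 455, 18 and 24, 3, 0 and 338. The combination against CD40 agonist gave 0, 0 to 6, 347, 29 and 21, 0, 0 and 8, and CD40 agonist against Control gave 0, 0 to 7, 250, 22 and 24, 1, 43 and 38. Voom gave 0, 7 and 5 in the last 3. The TPM scale moved the median of all genes by up to -0.20 (combination against Control, pseudocount 0.1). Of 853 values of the 8 genes under an alternative 7 changed sign, came to 0 or left 0. Prg2, at 0 in both groups of the combination against CD40 agonist, left 0 with voom (-0.17) and with the replicate block (0.01). The replicate block changed no call of the 8. Replicate numbers did not pair the samples: deviations from group means correlated at -0.061 to 0.060 between same-numbered libraries.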
